A study of Mus musculus with 29 samples.

Results

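The clustered histone genes described here were all 68 genes of the count files whose symbol begins with Hist1, Hist2, Hist3 or Hist4 followed by a class of H1, H2A, H2B, H3 or H4, out of 23366 genes counted. They comprised 6 H1, 18 H2A, 19 H2B, 12 H3 and 13 H4 genes. The Hist1 cluster on mouse chromosome 13 held 54 of them, the Hist2 cluster on chromosome 3 held 10, the Hist3 cluster on chromosome 11 held 3, and Hist4h4 stood alone on chromosome 6. Coordinates are those of build mm9 (NCBIM37), the build named in the submitters' processing notes, with the GENCODE vM1 annotation, in which all 68 symbols were found.

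Core histones H2A, H2B, H3 and H4 form the protein spool of the nucleosome, and linker histone H1 binds where DNA enters and leaves it. Most genes of these clusters are replication-dependent: they lack introns, are transcribed mainly while DNA is copied, and give messages that end in a conserved stem-loop in place of a poly(A) tail. The stem-loop is bound by the stem-loop binding protein, and the message is degraded when DNA synthesis stops. In marrow, stem cells divide rarely and progenitors divide often, so the messages are known as a feature of cells in S phase.

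The study sequenced RNA of sorted Lin-cKit+Sca1+ marrow cells of C57BL/6 mice, 8 to 12 weeks old, in which Mysm1 (a histone H2A deubiquitinase) and Puma (gene Bbc3, a p53 target that promotes apoptosis) were deleted singly or together. CD150-negative cells gave 3 libraries from each of 4 genotypes: the double knockout (Mysm1-/-Puma-/-), Mysm1-/-Puma+/- animals, the Puma-/- single knockout, and wild-type animals. CD150-positive cells gave 7 libraries of the double knockout, 4 of the Mysm1-/-Puma+/- genotype, 2 of the Puma-/- genotype and 4 of wild type. Every Mysm1-/- library with a Puma allele was Puma+/-, so no group lacked Mysm1 on a Puma+/+ background. RNA was depleted of ribosomal RNA rather than selected for poly(A), so messages without a tail were included, and libraries were made from low input. The labels give each library as pooled male and female and do not say how many animals it holds, so p-values measure the spread between these libraries.

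The 29 libraries held between 12304713 and 54339749 counts. Kit, the receptor of the gate, had medians of 464.5 to 736.6 CPM (counts scaled to a common library size with edgeR's TMM factors) over the 8 groups, and Slamf1, the gene of CD150, had medians of 16.44 to 22.68 CPM in CD150-positive groups and 0.5112 to 1.737 CPM in CD150-negative groups. Mysm1, counted over the whole gene, averaged 72.64 ± 7.294 CPM in CD150-negative Mysm1-/-Puma-/- cells, 98.81 ± 22.69 CPM in Mysm1-/-Puma+/- cells, and 103.2 ± 5.009 CPM in wild-type cells (SD, n = 3 each). Bbc3 averaged 25.89 ± 3.865 CPM in Mysm1-/-Puma-/- cells, 5.557 ± 0.3824 CPM in Puma-/- cells and 6.445 ± 1.929 CPM in wild-type cells. The labels do not say which exons either allele removes, so these whole-gene counts do not check the genotypes, and groups are called as labelled. Both libraries named A2, of Mysm1-/-Puma+/- mice, had 333.0 and 428.0 CPM of Xist on the unscaled library total, against at most 13.6 in the other libraries. They had at most 0.563 of the Y-linked gene Ddx3y, against 62.7 to 149.0 in the others, whose Xist was 1.41 to 13.6. No library was high in both genes, so these levels do not bear out the pooled label for any library. The A2 libraries stand apart from all others in both genes.

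The sequence that sets these genes apart lies just after the stop codon. The 16-base core of the histone stem-loop, a pair of complementary arms around a short loop, was searched by its known pattern in the 120 bases after the stop codon, on the coding strand. It was found in 60 of the 66 members with an annotated coding sequence (90.9%) and in 20 of 22314 other protein-coding genes (0.0896%), of which H2afx, the replication-linked histone gene outside the clusters, was 1. A form of 36 members, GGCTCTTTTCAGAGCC, was the most frequent and occurred in H1, H2A, H2B and H3 genes. The 13 H4 members had other stems, of which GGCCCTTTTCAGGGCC occurred in 8. The cores of 5 members of different classes are shown in capitals with 5 flanking bases on each side, in the DNA letters of the coding strand.
Hist1h1b: ccaaaGGCTCTTTTCAGAGCCaccta
Hist1h2bf: ccaaaGGCTCTTTTCAGAGCCaccta
Hist1h3d: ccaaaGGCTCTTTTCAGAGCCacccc
Hist2h2ac: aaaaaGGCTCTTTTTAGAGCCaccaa
Hist1h4k: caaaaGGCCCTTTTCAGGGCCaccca
These lie in mm9 at chr13:21871701-21871726 (minus strand), chr13:23665629-23665654 (minus), chr13:23668108-23668133 (plus), chr3:96024336-96024361 (minus) and chr13:21842014-21842039 (minus). The 6 members without the core in this window were 5 H2B genes, among them Hist2h2bb and Hist2h2be, and 1 H2A gene, Hist1h2an. No match says only that these letters are not in this window of this annotation.

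Promoters of 61 members were found in RefSeq (GRCm38.p6) as 300 bases, from 250 before to 50 after the annotated start. On either strand, the TATA box TATAAA occurred in 35 of 61 (57.4%), against 13.6% of 32851 mouse promoters of the same length. The CCAAT box CCAAT occurred in 52 of 61 (85.2%), against 37.4% of all promoters, and in 3 of 12 H4 promoters. The octamer ATTTGCAT, known as an element of H2B promoters, occurred in 6 of 16 H2B and 7 of 17 H2A promoters and in none of the H1, H3 and H4 promoters, against 1.74% of all. None of the 3 motifs contains another. H2A and H2B genes of the clusters often lie head to head and share the bases between them, so a match can count for both. Those of Hist1h1b and Hist2h2bb, the members of smallest p in 2 of the comparisons described next, are shown with the motifs of either strand in capitals.
Hist1h1b: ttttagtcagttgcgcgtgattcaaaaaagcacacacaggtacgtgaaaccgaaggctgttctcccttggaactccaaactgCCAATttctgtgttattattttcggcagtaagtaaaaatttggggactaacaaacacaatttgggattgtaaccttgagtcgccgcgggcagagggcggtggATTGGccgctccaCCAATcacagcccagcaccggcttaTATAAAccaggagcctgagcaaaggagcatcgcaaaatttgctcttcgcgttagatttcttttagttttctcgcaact
Hist2h2bb: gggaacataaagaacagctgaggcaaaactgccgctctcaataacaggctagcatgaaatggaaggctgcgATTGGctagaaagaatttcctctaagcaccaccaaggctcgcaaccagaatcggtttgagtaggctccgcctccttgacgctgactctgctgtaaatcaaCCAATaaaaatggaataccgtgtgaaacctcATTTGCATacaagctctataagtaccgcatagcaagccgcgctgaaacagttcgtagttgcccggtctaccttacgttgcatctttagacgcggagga
They lie in GRCm38.p6 at chr13:21780576-21780875 (minus strand) and chr3:96269450-96269749 (plus strand). In Hist1h1b the TATA box began 28 bases before the start. In Hist2h2bb the octamer began 48 bases before the start, and no TATAAA was found.

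Near-identical copies decide what each count can mean. Of the 68 members, 50 had more than 50% of their 50-base coding windows, the length of a read, present without mismatch in another member of the same class, and 54 did so with up to 2 mismatches. With 2 mismatches these were 15 of 18 H2A, 16 of 19 H2B, 12 of 12 H3, 11 of 13 H4 and 0 of 6 H1 genes. No window was shared between classes. The treatment of reads that match several places is not given in the sources used here. In the deepest library, wild-type CD150-negative D3, 8 H2A genes held between 269730 and 305515 counts each. Hist2h3c1 and Hist2h3c2 differed over the 29 libraries by less than counting noise (chi-square per degree of freedom 0.47), and no other pair of the 60 members with at least 100 counts in every library did. Hist1h2bq, Hist1h2br, Hist1h2ap and Hist2h2aa1, 4 further copies, had 0 counts in all 29 libraries, and the cause of these zeros was not tested. The listed length equals that of vM1 in 17 of the 68 members, so the counted annotation differs from the one searched here. Because reads can match several copies, sums over the class may count one read at several copies, and the level of one copy is uncertain. A group of 14 members with at most 50% of windows within 2 mismatches of another, called the distinct members here, is counted separately in the main comparisons: all 6 H1 genes, Hist3h2a, Hist1h2aa, Hist2h2ab, Hist1h2ba, Hist2h2be, Hist2h2bb, Hist2h4 and Hist4h4.

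**Figure D1:**
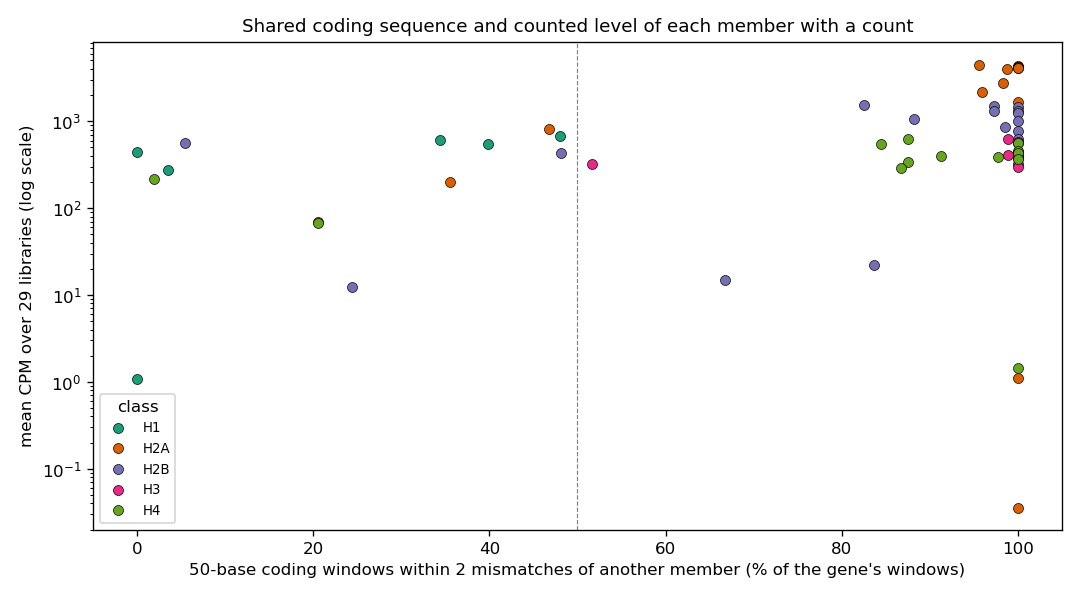
Each point is a member with at least 1 count. The horizontal axis gives the percentage of its 50-base coding windows found within 2 mismatches in another member, and the vertical axis its mean CPM over 29 libraries on a log scale. Colours are histone classes and the dashed line marks 50%. The 10 H2A genes of highest level lie between 95.6% and 100%, and H1 genes all lie left of the line.

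The 10 members of highest mean level were all H2A genes with near copies, and H2A is the class with the highest counts. Over the 29 libraries Hist1h2ab averaged 4488 CPM, Hist1h2ai 4370, Hist1h2ah 4222, Hist1h2ad 4216, Hist1h2ag 4164, Hist1h2ae 4105, Hist1h2ac 4103, Hist1h2af 3944, Hist1h2ak 2738 and Hist2h2ac 2150 CPM. Per 1000 bases of the length in the files, Hist1h2ai was highest at 11120 CPM per kilobase, and Hist1h2ac, listed at 2493 bases, came 24 in that order at 1646 CPM per kilobase. At the other end, the testis-specific linker histone Hist1h1t averaged 1.091 CPM. Hist1h2aa and Hist1h2ba, the genes of the testis histones TH2A and TH2B, were counted at 30.93 to 94.55 CPM and 160.4 to 608.9 CPM. For Hist1h2ba, 48.1% of windows were within 2 mismatches of another member, and 38.2% were identical to one. Reads of the identical windows cannot be told apart from those of other H2B genes by that sequence alone. Of the 68 members, 63 passed the filter on low counts in each fit. The other 5 were the 4 copies at 0 and Hist2h2aa2, which had at most 28 counts in any library.

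Clustered histone messages were lowest in CD150-negative cells that lacked both Mysm1 and Puma. The 68 members took 3.34%, 4.27% and 4.49% of the counts of the 3 Mysm1-/-Puma-/- libraries. They took 6.38% to 7.17% in the Mysm1-/-Puma+/- libraries, 7.05% to 7.64% in the Puma-/- libraries and 7.29% to 8.08% in the wild-type libraries of the same gate. All 3 double-knockout libraries lay below the other 9, for the sum and for each of the 5 classes. H2A, the largest class, took 2.11% to 2.86% in double-knockout libraries and 4.52% to 5.14% in wild-type libraries. H1 took 0.124% to 0.157% in double-knockout libraries and 0.275% to 0.292% in wild-type libraries. The 3 Mysm1-/-Puma+/- libraries lay below the 3 wild-type libraries in H1, in H2A and in H3, and overlapped them in H2B and H4.

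**Figure D2:**
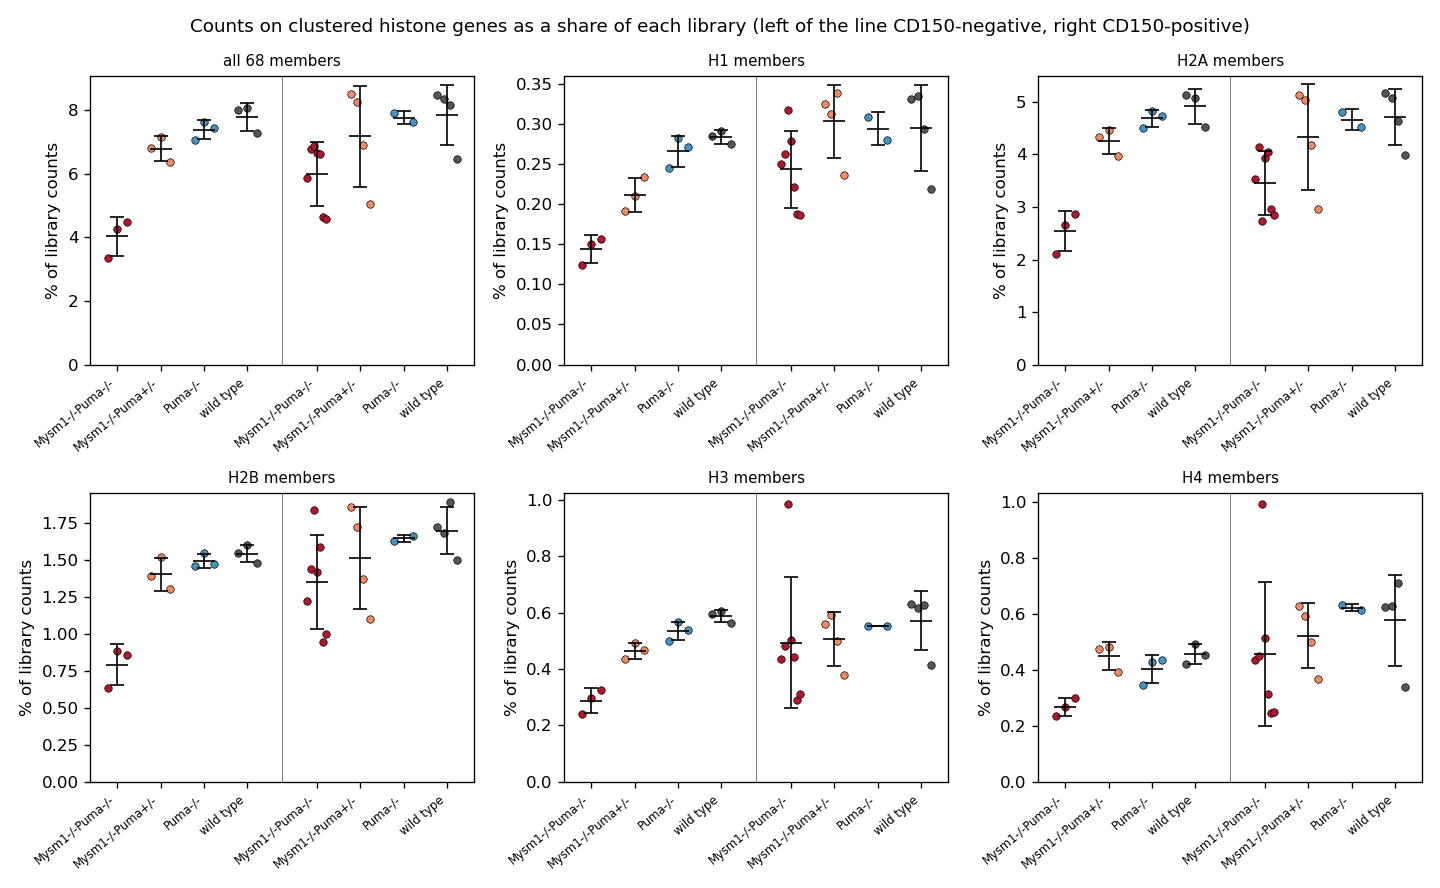
Counts on the members as a percentage of all counts of a library, for all 68 members and for each class. Each point is a library, horizontal bars are group means and error bars are SD; within each panel CD150-negative groups stand left of the vertical line and CD150-positive groups right of it. The 3 CD150-negative Mysm1-/-Puma-/- libraries are the lowest of their gate in every panel, and 1 CD150-positive Mysm1-/-Puma-/- library is high in H3 and H4.

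In CD150-negative cells, 57 of the 63 tested members were called lower in Mysm1-/-Puma-/- than in wild type and 0 higher, by edgeR's quasi-likelihood test with Benjamini-Hochberg adjustment over 21168 genes at an adjusted p under 0.05. Over all genes tested, 1.61% were called lower and 0.704% higher. The median log2 fold change of the 63 was -1.09, beside 0.03 over all genes. In 58 of the 63, every double-knockout library lay below every wild-type library, against 9.36% of all genes tested. Called lower were 5 of 6 H1, 14 of 15 tested H2A, 15 of 17 H2B, 12 of 12 H3 and 11 of 13 H4 genes. Of the distinct members, 11 of 14 were called lower, with a median of -1.01. They are set apart by their coding windows, and the share of their reads that comes from other members was not measured. Leaving out 1 library at a time gave 52 to 57 members. In sorted cells measured in bulk, fewer cells in S phase and less histone RNA per cell cannot be told apart.

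The linker histone gene Hist1h1b (H1.5) had the smallest p of the members. It had 95.48, 120.1 and 135.8 CPM in the Mysm1-/-Puma-/- libraries, against 339.7, 326.0 and 281.5 CPM in the wild-type libraries. The groups did not overlap, and its log2 fold change of -1.48 ± 0.16 (SE, edgeR adjusted p 7.02e-05) had an unadjusted p of 4.97e-08. It has no 50-base coding window in common with another member. Hist1h1a (H1.1) had 209.3, 250.2 and 276.7 CPM in the double-knockout libraries, against 525.6, 591.4 and 517.8 CPM in wild type, a log2 fold change of -1.20 ± 0.15 (edgeR adjusted p 0.000199). Hist1h1e, Hist1h1d and Hist1h1c, the remaining somatic linker histones of the cluster, were also called lower, at -1.08, -1.08 and -0.97. Hist1h1t, with under 3 CPM in every CD150-negative library, was not called.

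H3 genes were uniform: all 12 were called lower, between -1.27 and -1.08. Hist1h3d had 173.7, 223.4 and 241.2 CPM in Mysm1-/-Puma-/- libraries, against 496.4, 515.8 and 478.8 CPM in wild type (log2 fold change -1.27 ± 0.15, edgeR adjusted p 0.000157). Hist1h3b changed by -1.24 ± 0.15, Hist1h3i by -1.15, Hist1h3c by -1.15 and Hist1h3h by -1.12. Every H3 gene has near copies, so the 12 values are not 12 separate measurements.

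Among H2A and H2B genes, which pair in the nucleosome, most fell by similar amounts. Hist1h2ab, the member with the highest counts, had 2072, 2746 and 2997 CPM in Mysm1-/-Puma-/- libraries, against 5474, 5785 and 5022 CPM in wild type (log2 fold change -1.11 ± 0.17, edgeR adjusted p 0.00108). The other 9 of the 10 members of highest level were called lower as well, between -1.13 for Hist1h2ak and -0.91 for Hist2h2ac. Of the H2B genes, Hist1h2bf had 244.5, 334.9 and 323.1 CPM in double-knockout libraries, against 653.5, 673.8 and 620.5 CPM in wild type, with a log2 fold change of -1.16 ± 0.15. The distinct member Hist2h2bb had 213.0, 288.5 and 316.9 CPM in Mysm1-/-Puma-/- libraries, against 575.7, 591.0 and 575.7 CPM in wild type. Hist3h2a, of the small cluster on chromosome 11, had 101.7, 115.5 and 120.5 CPM in double-knockout libraries, against 204.8, 216.6 and 195.4 CPM in wild type (log2 fold change -0.92 ± 0.14). In each of these genes the double-knockout libraries were all below the wild-type ones.

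A few members with sequence of their own, chosen for description after their values were seen, had log2 fold changes near 0. Hist4h4, the H4 gene outside the other clusters, had 348.7, 205.5 and 234.5 CPM in Mysm1-/-Puma-/- libraries, against 250.2, 247.0 and 347.1 CPM in wild type, a log2 fold change of -0.16 ± 0.21 (edgeR adjusted p 0.903). Hist2h2be had 11.92, 9.92 and 8.269 CPM in double-knockout libraries, against 8.754, 6.191 and 11.92 CPM in wild type, a log2 fold change of 0.11 ± 0.25 (edgeR adjusted p 0.966). The groups overlapped in both genes. Both are listed in the files at several times their coding length, with 2879 bases for Hist4h4 and 2618 for Hist2h2be beside coding sequences of 312 and 381 bases. Hist2h4, an H4 gene of the Hist2 cluster listed at 348 bases, was called lower at -1.05 ± 0.16 (edgeR adjusted p 0.00109), with 30.44, 34.59 and 41.35 CPM in Mysm1-/-Puma-/- libraries, against 61.28, 79.58 and 71.81 CPM in wild type. Hist1h1d, listed at 2977 bases, was called lower. The part of listed length in these values was not tested. The 4 other tested members without a call were Hist3h2ba (-0.72 ± 0.23), Hist1h4m (-1.79 ± 0.85), Hist1h2ao (2.50 ± 1.5) and Hist1h1t (-0.29 ± 0.76), the last 3 with at most 192 counts in any library.

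**Figure D3:**
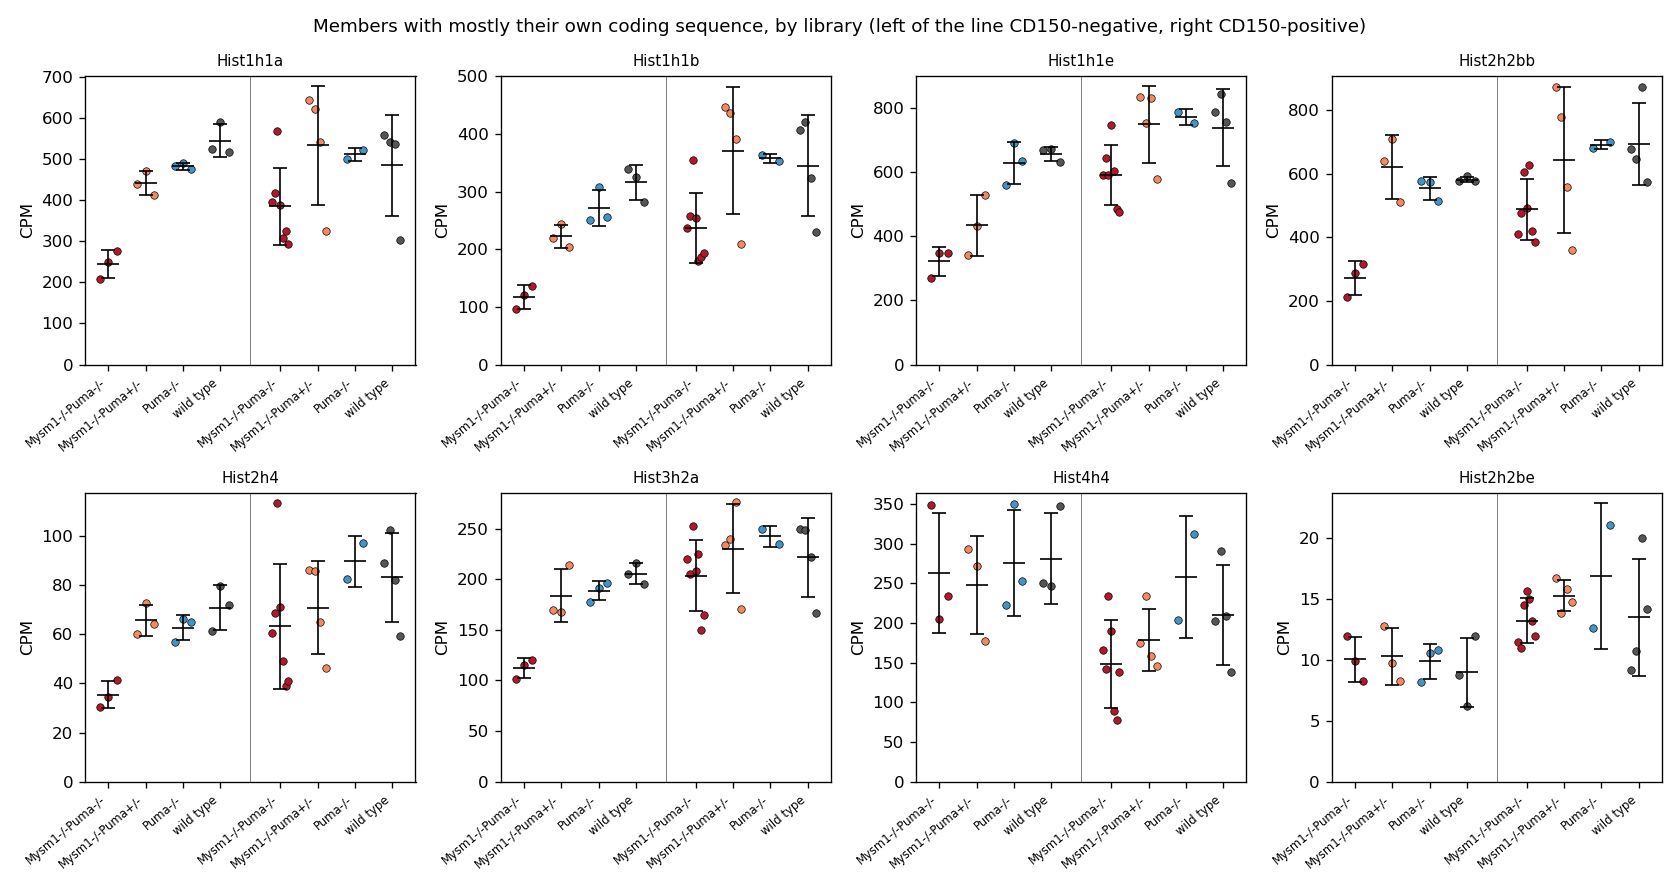
TMM-scaled CPM of 8 distinct members in each library, with group means and SD. CD150-negative groups stand left of the line and CD150-positive groups right of it. Among the CD150-negative groups, Hist1h1a, Hist1h1b, Hist2h2bb, Hist2h4 and Hist3h2a are lowest in Mysm1-/-Puma-/- libraries, whereas the groups overlap in Hist4h4 and Hist2h2be.

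Set against Puma-/- cells of the same gate, which differ from the double knockout in Mysm1, Mysm1-/-Puma-/- cells again had lower histone messages. Of 63 members, 53 were called lower and none higher by edgeR's quasi-likelihood test, with a median log2 fold change of -0.99, and 0.935% of all genes were called lower and 0.411% higher. In 57 of 63 the groups did not overlap, against 8.09% of all genes. This comparison and those with wild type and with Mysm1-/-Puma+/- cells share the 3 double-knockout libraries. The distinct members gave 10 of 14. Hist1h1b led again, with the same 3 double-knockout values against 250, 307.8 and 256.5 CPM in Puma-/- libraries (log2 fold change -1.24 ± 0.16, edgeR adjusted p 0.000464). Hist1h3d followed at -1.13, then Hist1h2bf at -1.08, Hist1h3b at -1.05, Hist1h1a at -1.01, Hist1h3i at -1.01, Hist1h2ak at -1.09 and Hist1h2bn at -1.12. By class the calls were 5 of 6 H1, 13 of 15 H2A, 14 of 17 H2B, 12 of 12 H3 and 9 of 13 H4 genes, and the H4 median was the smallest, at -0.79. Leaving out 1 library at a time gave 43 to 55 calls, and the H4 count then varied between 1 (without Mysm1-/-Puma-/- B3, Puma-/- C3 or Puma-/- C5) and 11 (without Mysm1-/-Puma-/- B5). Without Mysm1-/-Puma-/- B1 it was 2.

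Set against Mysm1-/-Puma+/- cells, which keep 1 Puma allele, 53 of 63 members were called lower in CD150-negative Mysm1-/-Puma-/- cells by edgeR's quasi-likelihood test, none higher, and 1.05% of all genes were called lower and 0.194% higher. The median log2 fold change was -0.90. Of the distinct members, 8 of 14 were called lower, with a median of -0.76. Hist2h2bb had the smallest p: its 3 double-knockout values of 213.0 to 316.9 CPM lay below 640.2, 708.3 and 511.0 CPM in Mysm1-/-Puma+/- libraries (log2 fold change -1.26 ± 0.17, edgeR adjusted p 0.00792). Next were Hist1h2bm (-1.08), Hist1h4k (-1.12), Hist1h2bf (-0.99), Hist1h2bk (-1.07), Hist1h3d (-0.97), Hist1h4b (-1.11) and Hist1h1a (-0.93). Of the linker histones, 3 of 6 were called, and Hist1h1e (-0.51 ± 0.17) and Hist1h1c (-0.62 ± 0.17) were not. In 57 of 63 members the groups did not overlap, against 9.48% of all genes. The calls rested on the library Mysm1-/-Puma+/- A2: without it no member was called and 1 gene of all was, while the median stayed at -0.82 and 57 members had an unadjusted p under 0.05. Without Mysm1-/-Puma+/- A1 the count was 32. Fitted with the 2 compared groups alone, no member was called and the median was -0.84.

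**Figure D4:**
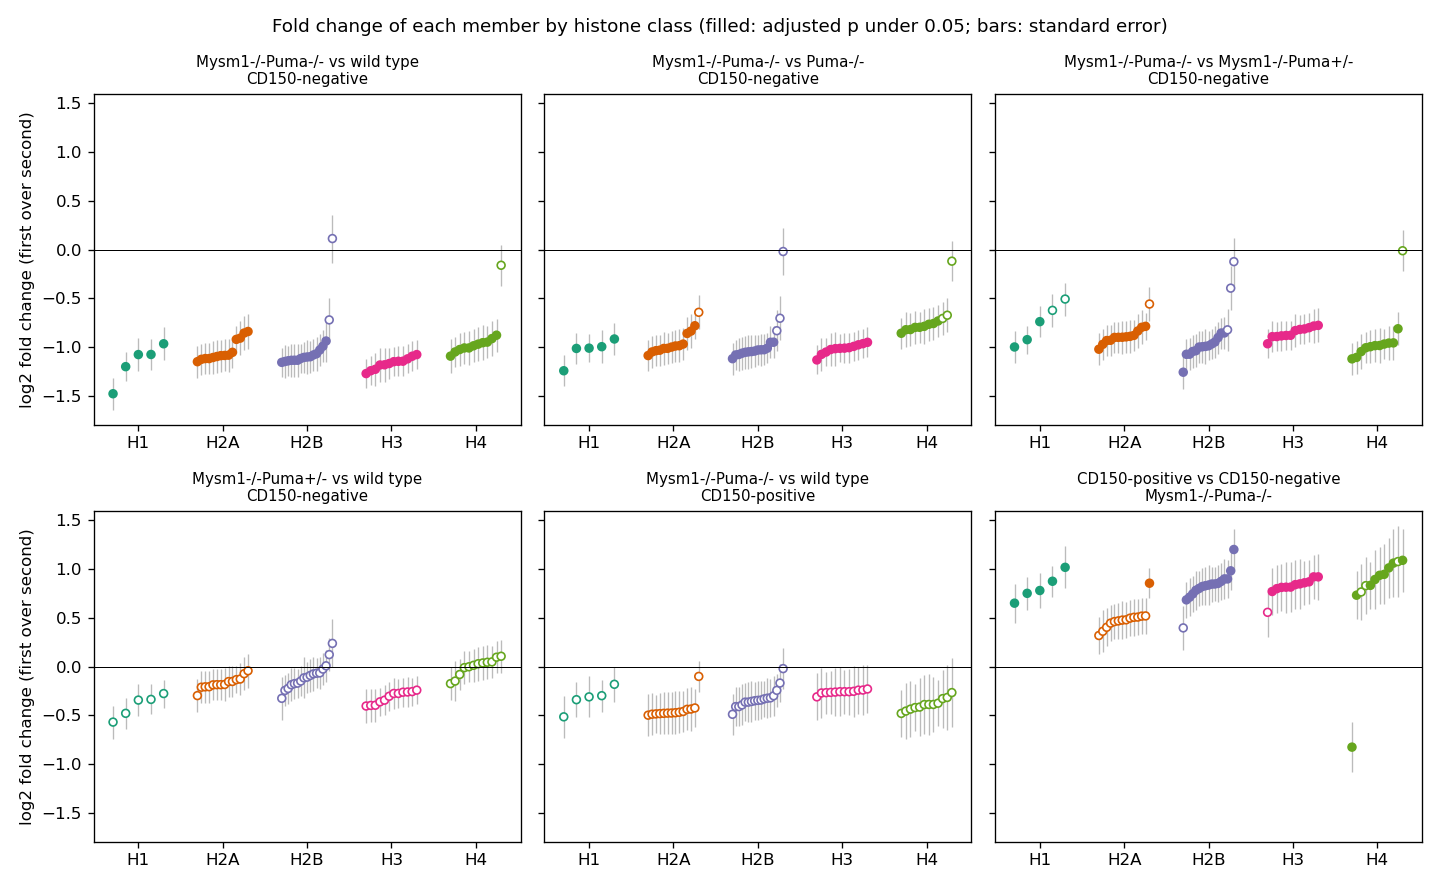
Log2 fold change of each member in 6 comparisons, by histone class, with standard errors from edgeR. Filled points had an adjusted p under 0.05. Hist1h2ao, Hist1h4m and Hist1h1t, with very low counts, are left out. The double-knockout comparisons in CD150-negative cells lie mostly between -0.5 and -1.5, and the panels of CD150-negative Mysm1-/-Puma+/- and of CD150-positive Mysm1-/-Puma-/- against wild type have no filled point. In the panel of CD150-positive against CD150-negative cells, Hist4h4 is the filled point below 0.

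Without loss of both genes, no member was called against wild type in CD150-negative cells in the main edgeR fit. Between Mysm1-/-Puma+/- and wild type, 0 of 63 members passed edgeR's quasi-likelihood test, where 0.869% of all genes did. The median log2 fold change was -0.17, and in 30 of 63 members the 3 Mysm1-/-Puma+/- libraries were all below the 3 wild-type ones, against 8.83% of all genes. The median of the distinct members was -0.14, with 0 of 14 called. The smallest p values belonged to 2 linker histones. Hist1h1e (H1.4) had 340.1, 431.7 and 528.4 CPM in Mysm1-/-Puma+/- libraries, against 667.2, 671.9 and 630.3 CPM in wild type (log2 fold change -0.57 ± 0.17, edgeR adjusted p 0.173). Hist1h1b had 218.6, 243.3 and 204.5 CPM in Mysm1-/-Puma+/- libraries, against 339.7, 326.0 and 281.5 CPM in wild type (-0.48 ± 0.16, edgeR adjusted p 0.249). Neither gene's groups overlapped. Without the library Mysm1-/-Puma+/- A3, Hist1h1e was called (log2 fold change -0.74, edgeR adjusted p 0.0341). With all libraries, Hist1h1e was called by DESeq2 (DESeq2 adjusted p 0.0233) and by limma on the deposited CPM (limma adjusted p 0.0356). It was also called by edgeR with background reads as a covariate (edgeR adjusted p 0.013). Between Puma-/- and wild type, 0 of 63 members and 0 of 21168 genes were called (0%), and the median was -0.10. DESeq2 called 0 members there as well, and 0 members had an unadjusted p under 0.05. The members of smallest p were Hist1h4b (-0.27 ± 0.17) and Hist1h4j (-0.26 ± 0.17), both with an edgeR adjusted p of 1.

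In CD150-positive cells no member was called between genotypes. Between Mysm1-/-Puma-/- and wild type, 0 of 63 passed edgeR's quasi-likelihood test, where 0.291% of all genes did, though all 63 fold changes were below 0, with a median of -0.37 beside -0.05 over all genes, and 13 had an unadjusted p under 0.05. The 14 distinct members were all below 0 too, with a median of -0.36 and 0 called. The 68 members took 4.59% to 6.87% of counts in the 7 double-knockout libraries, with a median of 6.61%, and 6.46% to 8.48% in the 4 wild-type libraries, with a median of 8.25%. Those ranges overlapped through the wild-type library W1. Hist1h1b, for example, had a lowest, median and highest level of 180.2, 236.4 and 354.0 CPM in the double-knockout libraries, against 229.6, 323.2, 406.4 and 420.2 CPM in wild type (log2 fold change -0.52 ± 0.21, edgeR adjusted p 0.61). Hist1h2aa, the TH2A gene, had the smallest p (-0.49 ± 0.20, edgeR adjusted p 0.583). DESeq2 also called 0 members in this comparison. The number with an unadjusted p under 0.05 was 43 without Mysm1-/-Puma-/- B5 and 1 without wild-type D2. Leaving out the libraries named P or W moved the median from -0.26 to -0.13 in H3 and from -0.39 to -0.20 in H4. In H1 it moved from -0.33 to -0.31, in H2B from -0.35 to -0.30 and in H2A from -0.48 to -0.53.

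The remaining CD150-positive comparisons gave 0 calls too. Against Mysm1-/-Puma+/- cells, the median of the double knockout was -0.32, 62 of 63 members were below 0, 0% of all genes were called, and Hist1h1b (-0.71 ± 0.21) and Hist1h1a (-0.53 ± 0.21) had the smallest p, both with an edgeR adjusted p of 1. Against Puma-/- cells the median was -0.31, 0.115% of all genes were called, and Hist4h4 (-0.73 ± 0.29, edgeR adjusted p 0.48) and Hist1h1b (-0.53 ± 0.27, edgeR adjusted p 0.524) came first. Between Mysm1-/-Puma+/- and wild type the median was -0.05, with 0.454% of all genes called, and Hist2h2be (0.24 ± 0.23) had the smallest p, followed by Hist1h2ao (-1.60 ± 1.73), a copy with almost no counts. Between Puma-/- and wild type the median was -0.05, 0% of genes were called, and the members of smallest p were Hist1h2ao and Hist1h4m, both with almost no counts. The double knockout had 13 members with an unadjusted p under 0.05 against Mysm1-/-Puma+/- cells and 1 against Puma-/- cells, and the comparisons of Mysm1-/-Puma+/- and Puma-/- cells with wild type had 0. DESeq2 called 0 members in each of these 4 comparisons. A p that misses the threshold does not show that the groups were alike.

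Whether a genotype effect differed between the gates was tested for 2 of the effects, in the fit of all 29 libraries. For the loss of Puma in Mysm1-/- cells, the effect in CD150-positive cells minus that in CD150-negative cells had a median of 0.62 over 63 members and 0.36 over the 14 distinct members, with none called (0% of all genes). Hist1h2bf (0.72 ± 0.26) and Hist2h2bb (0.79 ± 0.29) had the smallest p, each with an edgeR adjusted p of 1, and 19 of the members had an unadjusted p under 0.05. DESeq2 called 0. For the loss of Mysm1 the median difference was 0.08 over 63 members and 0.06 over the distinct members, with none called (0.00916% of all genes), and Hist1h1e (0.62 ± 0.24) had the smallest p. There 1 member had an unadjusted p under 0.05, and DESeq2 called 0. Neither of these 2 differences between the gates passed the test for any member. For the double knockout against wild type or against Puma-/- cells, the difference between the gates was not tested.

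Between the gates, CD150-positive cells had more histone message than CD150-negative cells in the double knockout. In Mysm1-/-Puma-/- mice, 41 of 63 members were called higher and 1 lower in CD150-positive cells by edgeR's quasi-likelihood test, where 5.16% of all genes were called higher and 7.14% lower. The member called lower was Hist4h4 (log2 fold change -0.83). Called higher were 16 of 17 H2B, 11 of 12 H3, 8 of 13 H4, 5 of 6 H1 and 1 of 15 H2A genes, the last being Hist3h2a. The distinct members gave 9 higher and 1 lower of 14. The H2A count rested on 1 library: without CD150-positive Mysm1-/-Puma-/- B5, which had the lowest H2A and the highest H3 and H4 shares of its group, 12 of 15 H2A genes were called higher. The H4 count moved with many libraries: it was 0 without CD150-negative B1 or B3, 3 without CD150-positive B6, 4 without CD150-positive B1, B3 or B5, and 10 to 11 without P1, P2 or P3. The total rested on another: without CD150-negative Mysm1-/-Puma-/- B1, 8 members were called, with a median of 0.68 beside 0.82 with all libraries, and without CD150-negative B3 the count was 27. The B1 library had the lowest histone share of all 29, 3.34%, and 5809.8 CPM of olfactory, vomeronasal and trace amine receptor genes, against 1042.4 to 4295.8 in the other CD150-negative libraries. Markers of other cell types differed between the gates as well. The megakaryocyte list held 438 to 1030 CPM in CD150-positive and 60.9 to 84.6 CPM in CD150-negative double-knockout libraries, with 7 of 8 genes called higher, among them Pf4 (platelet factor, log2 fold change 6.44). The erythroid list held 188 to 762 CPM in CD150-positive and 127 to 142 CPM in CD150-negative libraries, with 4 of 8 tested genes called higher (Gata1, Epor, Car1 and Klf1) and 1 lower. The granulocyte and monocyte list held 594 to 1010 CPM in CD150-positive and 803 to 2380 CPM in CD150-negative libraries, with 3 of 11 genes called lower. Of the mitosis list 8 of 30 genes were called higher and 0 lower, among them Mki67 (0.82) and Ccna2 (0.83), and of the replication list 10 of 44 higher and 2 lower. The part of these differences in the histone result was not tested.

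The pseudogene Hist3h2bb-ps had the smallest p in this comparison (log2 fold change 1.20 ± 0.21, edgeR adjusted p 0.000125). Its levels had a lowest, median and highest of 10.23, 15.27 and 24.7 CPM in the 7 CD150-positive Mysm1-/-Puma-/- libraries, against 6.405, 8.079 and 6.137 CPM in the CD150-negative ones. Hist3h2a came next (0.86 ± 0.16, edgeR adjusted p 0.000246), then Hist1h1e, which had a lowest, median and highest level of 476.3, 591.0 and 747.1 CPM in CD150-positive libraries, against 270.3, 347.1 and 347.8 CPM in CD150-negative libraries (0.88 ± 0.16, edgeR adjusted p 0.000278). The gates did not overlap in Hist3h2bb-ps or Hist1h1e. Hist3h2ba (0.98), Hist1h2bn (0.85), Hist1h2be (0.85), Hist1h1b (1.02) and Hist1h2bh (0.88) followed. The 3 genes of the Hist3 cluster were thus all among the 4 members of smallest p here. Hist3h2ba and Hist3h2bb-ps averaged only 22.4 and 14.76 CPM over the 29 libraries. They had 83.7% and 66.8% of windows within 2 mismatches of another member, so their counts may hold reads of other H2B genes.

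With Mysm1 absent and 1 Puma allele present, 3 members were called higher in CD150-positive than in CD150-negative cells, where 2.67% of all genes were called higher and 3.24% lower: Hist1h1e (log2 fold change 0.79 ± 0.17, edgeR adjusted p 0.00378), Hist3h2ba (0.86 ± 0.21, edgeR adjusted p 0.00806) and Hist3h2bb-ps (0.76 ± 0.22, edgeR adjusted p 0.0311). The median of the 63 was 0.16. Of these, 1 was left without the library CD150-negative A1 (Hist3h2ba) or CD150-positive A1 (Hist1h1e). In Puma-/- cells (4.94% of all genes called in either direction) and in wild-type cells (7.15%), 0 of 63 members were called, with medians of 0.12 and 0.09. DESeq2 called 0 members in either genotype, the compared groups alone gave 8 in Puma-/- cells, background reads as a covariate gave 2 in wild-type cells, and 3 members had an unadjusted p under 0.05 in each. The members of smallest p were Hist3h2bb-ps (0.67 ± 0.26) and Hist2h2be (0.77 ± 0.30) in Puma-/- cells and Hist3h2ba (0.58 ± 0.20) and Hist2h2be (0.60 ± 0.25) in wild-type cells, with edgeR adjusted p between 0.0918 and 0.185. Without the wild-type library CD150-positive D3-4, Hist3h2ba was called (edgeR adjusted p 0.0438).

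Genes that act with the histones were read from lists. Over all genes, 1.61% were called lower in the CD150-negative double knockout than in wild type. Of 15 genes of histone message processing, such as the stem-loop binding protein and the cleavage factors, none was called in any of the 3 comparisons of the CD150-negative double knockout, and the median log2 fold change against wild type was -0.16. Of 16 histone chaperones, 2 were called lower against wild type: Asf1b (-1.30 ± 0.23, edgeR adjusted p 0.00432), which carries H3 and H4 to new DNA, and Chaf1a (-0.72 ± 0.17, edgeR adjusted p 0.0287), a subunit of the assembly factor CAF-1. Of 11 histone variants outside the clusters, 3 were called lower: H2afx (-1.06 ± 0.17, edgeR adjusted p 0.0019), Cenpa (-1.01 ± 0.19), the centromeric H3, and H1fx (-1.11 ± 0.27). H2afx is also 1 of the 20 genes outside the clusters with the stem-loop core.

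Genes of the cell cycle were lower in the same libraries. Of 30 mitosis genes, 28 were called lower in CD150-negative Mysm1-/-Puma-/- than in wild-type cells and none higher, with a median log2 fold change of -0.98. Espl1 (separase) changed by -1.12, Ccna2 (cyclin A) by -1.19, Incenp by -0.92 and Mki67 by -1.06, with edgeR adjusted p of 0.000625 to 0.00117. Their summed level was 2550 to 3230 CPM in the double-knockout libraries and 5360 to 6050 CPM in wild type. Of 44 DNA replication genes, 14 were called lower and none higher, with a median of -0.64, led by Mcm10 (-0.95), Fen1 (-0.84), Ccne1 (-1.27) and Lig1 (-0.98). Against Puma-/- cells 20 mitosis and 4 replication genes were called lower, where 0.935% of all genes were. Against Mysm1-/-Puma+/- cells 17 mitosis and 4 replication genes were called lower, where 1.05% of all genes were, and these calls rested on Mysm1-/-Puma+/- A2, without which 1 gene of all was called. In CD150-positive cells 0 of 30 mitosis genes and 0 of 44 replication genes were called between the double knockout and wild type, with medians of -0.34 and -0.15. Of all genes tested there, 0.291% were called.

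**Figure D5:**
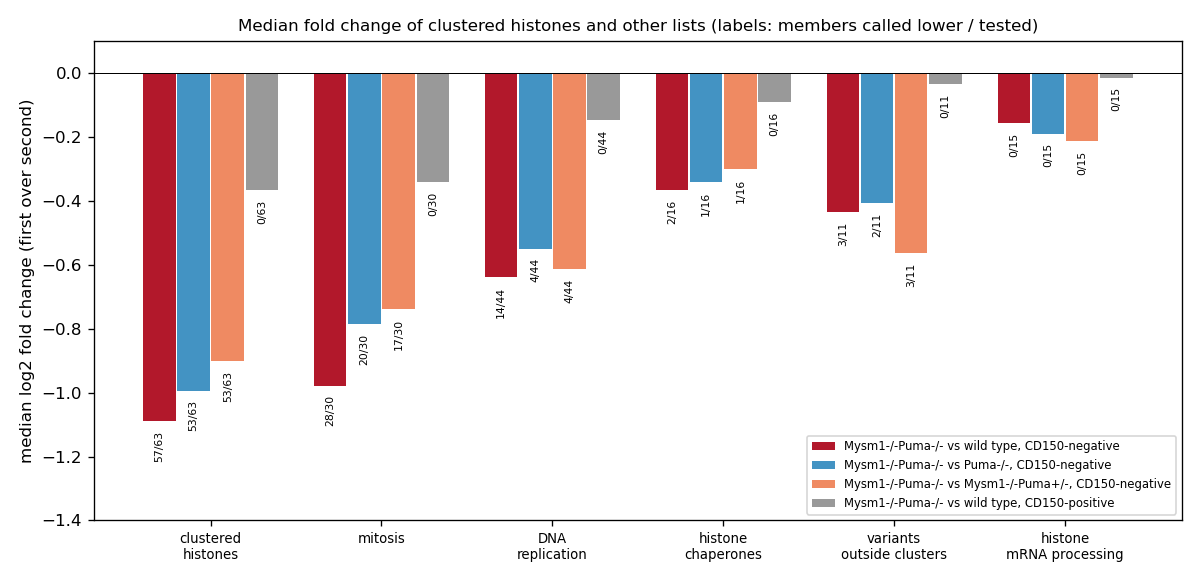
Bars give the median log2 fold change over the tested genes of each list in 4 comparisons of Mysm1-/-Puma-/- cells, and the labels give the members called lower and tested. In CD150-negative cells the clustered histones and the mitosis genes had the most negative medians, and the histone processing genes stayed closest to 0; in CD150-positive cells no list had a call.

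Markers of other cell types were summed beside these results. In CD150-negative cells the erythroid list (10 genes) held 127 to 142 CPM in Mysm1-/-Puma-/- and 179 to 219 CPM in wild-type libraries, and the megakaryocyte list (8) 60.9 to 84.6 CPM in Mysm1-/-Puma-/- and 56.2 to 60.8 CPM in wild-type libraries. The granulocyte and monocyte list (11 genes) held 803 to 2380 CPM in Mysm1-/-Puma-/- and 1160 to 2290 CPM in wild-type libraries. The B-cell list (8 genes) held 13.6 to 23.4 CPM in Mysm1-/-Puma-/- and 15.4 to 23.9 CPM in wild-type libraries, and the T-cell list (7) 113 to 133 CPM in Mysm1-/-Puma-/- and 97.4 to 147 CPM in wild-type libraries. The erythroid marker Hbb-b1 was at 0 in all 3 double-knockout libraries and at most 0.1034 CPM in wild type. The Lin-cKit+Sca1+ list (11 genes) held 2320 to 2390 CPM in double-knockout and 2130 to 2350 CPM in wild-type libraries. Of the markers, Selp (P-selectin, megakaryocyte list) was called higher in the double knockout (log2 fold change 1.16 ± 0.29, edgeR adjusted p 0.0427), and 1 erythroid marker was at 0 in every CD150-negative library. The part of the erythroid and megakaryocyte differences in the histone result was not tested.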

How the data were processed

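RNA of the 29 libraries was reverse transcribed with a stranded low-input kit after ribosomal depletion and sequenced as pairs of 50 bases, per the labels' protocols. The authors deposited raw featureCounts counts per gene for each library, and a table of normalized CPM. The submitters' processing notes name FastQC, Trimmomatic 0.33, TopHat2 2.0.9, Bowtie 1.0.0, featureCounts, edgeR, R 3.4.2 and mm9. The options used for reads that match several places are not given in the sources used here, so the level of each near copy is uncertain. Library totals, 12304713 to 54339749 counts, leave little counting error for the members above 100 counts, and spread between libraries sets the precision.

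From the deposited counts, edgeR 4.0.16 (R 4.3.3; TMM scaling, filterByExpr, quasi-likelihood F-test) was fitted over the 4 genotypes of each population for the genotype comparisons, and over all 29 libraries for the comparisons of populations and the 2 differences of effects. P-values were adjusted by Benjamini-Hochberg over all genes tested, with a threshold of 0.05. A standard error is the log2 fold change divided by the root of the F statistic. Alternatives were DESeq2 1.42.0, limma 3.58.1 on the authors' deposited CPM (log2 with a pseudocount of 1; 12578 genes, 60 members), other scalings and filters, a covariate of receptor-gene reads, the compared groups alone, replicate blocks and leaving out libraries. All columns of the deposited table were mapped to libraries (0 unmapped).

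Named members were the 10 of highest mean CPM, up to 8 called members of smallest p in each comparison (the 2 of smallest p where none was called) and up to 4 called genes of each other list. Further members are named because they are mostly their own sequence or fall outside a count. Members and lists were chosen with earlier results of these data known. The fits were also run on simulated counts with known changes, in which each gene was drawn independently. That run therefore does not cover copies that move together or single libraries that stand apart.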

Additional observations from a re-analysis of the deposited data

Results flagged for a closer look

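Of 147 values checked in groups of 4 to 10 libraries, 25 had a library far from the others of its group by Dixon's test at 95%, a test that chance passes in about 1 in 20 groups. The values are not independent, since class sums and near copies come from the same libraries. The 25 therefore cannot be set against that rate. All 25 were in CD150-positive groups, since CD150-negative groups had 3 libraries and were not tested.

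The library Mysm1-/-Puma-/- B5 stood above the other 6 of its group in H3 and H4 genes. H3 genes took 0.988% of its counts, against 0.290% to 0.504% in the others, and H4 genes 0.993%, against 0.245% to 0.513%. It had 1081 CPM of Hist1h3b, 831.5 of Hist1h3c, 704.9 of Hist1h3d, 901.5 of Hist1h3h and 829.4 of Hist1h3i. It also had 881.2 CPM of Hist1h4b, 896.5 of Hist1h4j, 1084 of Hist1h4k and 113.5 of Hist2h4. Its H2A share, 2.73%, was the lowest of the group, and its receptor-gene background of 7491.3 CPM was the highest of the group. The part of that background in its H3 and H4 values was not tested.

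The library wild-type W1 stood below the other 3 of its group. All members took 6.46% of its counts, against 8.16% to 8.48% in the others, the 18 members that are not near copies took 0.577%, and H3 genes 0.414%. It had 302.2 CPM of Hist1h1a, 458.2 of Hist1h3b, 334.1 of Hist1h3c, 337.4 of Hist1h3d, 360.6 of Hist1h3h, 294.5 of Hist1h4b and 387.7 of Hist1h4k. Its name differs in kind from those of the other wild-type libraries, and it had 219 CPM of Fos, an immediate early gene, against 0.813 to 4.25 CPM in the others. The P libraries of Mysm1-/-Puma-/- cells also had more Fos than the B libraries, with 11.3 CPM in P1, 61.5 in P2 and 125 in P3, and P2 and P3 had the lowest histone shares of their group, 4.63% and 4.59%. The part of Fos in these histone values was not tested.

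Hist1h2ao, a copy with almost no counts, reached 3.691 CPM in Mysm1-/-Puma+/- A3 and 4.477 CPM in Mysm1-/-Puma-/- P2. Hist3h2ba was high in Mysm1-/-Puma+/- A1 at 35.44 CPM, and Hist3h2bb-ps in wild-type D2 at 20.41 CPM.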

How the results depend on the processing

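The count for CD150-negative Mysm1-/-Puma-/- against wild type was within 1.5 times of 57 under every alternative but the removal of near copies, which leaves 18 members, of which 14 were called; leaving out 1 library gave 52 to 57. Against Puma-/- cells, 12 of those 18 were called, 31 members with the sample number as a replicate block, and 43 to 55 on leaving out 1 library. Against Mysm1-/-Puma+/- cells, 10 of the 18 were called, none with the compared groups alone, none with the replicate block, and 0 to 54 on leaving out 1 library. For Mysm1-/-Puma+/- against wild type, 1 member, Hist1h1e, was called with DESeq2, with limma on the deposited CPM and with background reads as a covariate. Leaving out 1 library gave 0 to 1.

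Between the gates, the 42 calls in Mysm1-/-Puma-/- cells became 20 with the compared groups alone, 8 without the libraries of high background, 14 of 18 without near copies, and 8 to 49 on leaving out 1 library. The 3 in Mysm1-/-Puma+/- cells became 1 with the compared groups alone and 1 to 4 on leaving out 1 library. In Puma-/- cells 8 were called with the compared groups alone, and in wild type 2 with the covariate and 0 to 1 on leaving out 1 library. Leaving out the libraries of high background and scaling without the members were chosen after seeing the data. The labels do not say that a shared name or number marks shared animals, and the main gate tests treat all libraries as independent. The libraries named A2 of both gates were the ones with high Xist and low Ddx3y. Deviations from group means correlated between -0.489 and 0.319 over 11 same-numbered CD150-negative pairs, 0.05 and 0.46 over 5 CD150-positive pairs, and -0.208 and 0.681 over 7 libraries of the same name in both gates, of which 4 were over 0.1 (A2 0.681, A3 0.587, B3 0.293, D2 0.122), so the pairing was not taken as given. With the library name as a replicate block, the gate comparisons gave 46 calls in Mysm1-/-Puma-/-, 4 in Mysm1-/-Puma+/- and 0 in wild-type cells. The block moved no other count by more than 1.5 times; the cause of these shifts was not tested. Of the values of single members, 2252 kept their direction and side of the threshold, 278 were no longer past it, 6 newly passed it, 1 moved and 0 reversed. Of the 8 members that never passed 200 counts, 4 had none in any library, and fold changes of the rest have wide errors.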
